A study of Rattus norvegicus with 12 samples.

Results

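Matrix metalloproteinases and their inhibitors were followed in cultured neural stem cells (NSCs) of the newborn rat: the proteases Mmp2, Mmp3, Mmp9, Mmp13 and Mmp14, the related protease Adamts1, and the tissue inhibitors Timp1, Timp2 and Timp3. Members were all probe sets for which the platform annotation gives 1 of these symbols and no other, which found 16 probe sets for the 9 genes among 14217 genes with a symbol on the array. Of the 16 probe sets 15 passed the filter on low values, at least 1 for every gene, and the brightest stands for its gene below. RNA was hybridised to 12 Affymetrix Rat230_2 arrays, whose probe sets each read the 3′ part of a transcript with several short probes. The NSCs came from Sprague Dawley rats of postnatal day 3 to 5 and formed 4 groups of 3 arrays: differentiated spinal cord cultures (SNSCfenhua in the titles, "fenhua" being Chinese for differentiation), proliferative spinal cord cultures (SNSC), differentiated brain cultures (BNSCfenhua) and proliferative brain cultures (BNSC). The labels name no genetic change and no agent for any group, and the way and length of differentiation are not given in the sources used here. No label says whether the arrays of a group stand for separate cultures or animals, so p-values measure the spread between arrays, which may be technical.

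Matrix metalloproteinases are zinc-dependent proteases that are made as inactive proenzymes, leave the cell or stay on its surface, and cut collagens, laminins, proteoglycans and growth factor precursors. The tissue inhibitors bind their active sites and set how much of the activity is free. In the nervous system these proteins are known for their part in cell migration, in the growth of processes and in the response to injury. The transcription of several of them, but not of all, is commonly raised by growth factors and inflammatory cytokines through AP-1 factors.

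Mmp3 and Mmp13 lie in a cluster of metalloproteinase genes on rat chromosome 8, and their promoters are shown because the pair had the largest differences between the tissues among the 9 genes and because AP-1 factors are covered below. RefSeq's table for assembly GRCr8 held promoter windows for 6 of the 9 members, each reaching from 250 bases before the annotated start to 50 after it. No window was found for Mmp2, Mmp9 and Mmp14, so their promoters were not searched. The AP-1 motif TGAGTCA, searched on both strands (its reverse complement is TGACTCA), occurred in 2 of the 6, those of Mmp13 and Mmp3. Of all 33469 windows, 4.63% held it. The match lay at bases -66 to -60 from the start in Mmp13, as the reverse complement, and at -71 to -65 in Mmp3, as written. The Ets core GGAA, on both strands, was in 95.8% of all windows and so describes little. A match is a description of letters and no measurement of binding. Below are the 250 bases before each start on the plus strand, chr8:12782579-12782828 for Mmp13 and chr8:12925031-12925280 for Mmp3, with the AP-1 match in capitals.
Mmp13: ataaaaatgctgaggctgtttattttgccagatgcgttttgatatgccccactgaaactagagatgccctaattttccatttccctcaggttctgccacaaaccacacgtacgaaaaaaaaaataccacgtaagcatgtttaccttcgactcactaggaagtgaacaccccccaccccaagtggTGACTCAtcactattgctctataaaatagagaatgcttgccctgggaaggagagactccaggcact
Mmp3: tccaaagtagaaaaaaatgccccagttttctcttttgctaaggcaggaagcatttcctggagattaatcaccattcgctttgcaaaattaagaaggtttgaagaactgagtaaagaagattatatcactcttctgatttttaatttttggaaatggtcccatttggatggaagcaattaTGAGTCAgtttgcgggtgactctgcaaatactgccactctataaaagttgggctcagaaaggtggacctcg

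Values are log2 signals scaled on each array by the authors, and no pair of arrays held identical values. The arrays' median signals were 6.88 to 7.23. Across the probe sets that passed the filter, which are not independent replicates, arrays correlated at r = 0.940 to 0.975 within groups and at 0.735 to 0.880 between groups. Each probe set that passed the filter was tested with limma, and called where its Benjamini-Hochberg adjusted p over the 20834 tested probe sets was under 0.05. Shares and medians given below for all probe sets are over these tested ones, while each member is counted once, by its brightest probe set. With a stricter filter at the 60th percentile the called share of all probe sets was larger. It was then 8389 of 14426 for differentiation in brain and 7170 of 14426 between the differentiated tissues. A group is called dim for a gene where all 3 of its arrays lay under their own 40th percentile, and folds against such a group are lower bounds, marked "at least" and counted from the mean of those percentiles (6.26 in differentiated spinal cord, 6.36 in proliferative spinal cord, 6.30 in differentiated brain and 6.11 in proliferative brain cultures). In bulk RNA, fewer cells of a type and less RNA per cell cannot be told apart. A marker counts as above the floor in a group wherever it was not dim, so some of its arrays may lie under it. Of 7 neural progenitor markers on the array, 5 were above the floor in differentiated spinal cord cultures and 6 in each other group, while Hes5 was dim in every group except differentiated brain cultures. Hmga2 was dim in both differentiated groups. Their summed linear signal per array was 16216.1 to 16666.6 in differentiated and 22690.5 to 23358.6 in proliferative spinal cord cultures. In brain it was 35809 to 42058.1 in differentiated and 28759.4 to 34964.3 in proliferative cultures.

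Markers of other cells moved with the groups. All 10 fibroblast and meningeal markers were above the floor in differentiated spinal cord cultures and 9 in proliferative ones, against 5 in either brain group, where Lum, Ogn, Pdgfrb and Foxc1 were dim. Between the differentiated tissues Thy1 went the other way, with means of 5.88 in spinal cord, under the mean floor of 6.26, and 7.88 in brain. The summed linear signal of the 10 markers per array was 91527 to 105816 in differentiated and 23711 to 42300 in proliferative spinal cord cultures, and 1112 to 1308 in differentiated and 679 to 933 in proliferative brain cultures. The sum over 10 microglia and macrophage markers was 3383 to 3490, 3591 to 6716, 1601 to 1785 and 540 to 767 in the same order of groups. Of these markers Cx3cr1 and Itgam were dim in every group, and C1qb in differentiated spinal cord and proliferative brain cultures. Aif1, Csf1r and Ptprc were also dim in proliferative brain cultures. The astrocyte sum was, in the same order, 48007 to 57944, 22370 to 41358, 110516 to 119626 and 28395 to 35621. None of its 8 markers was dim in any group, though the mean of Slc1a2 in proliferative spinal cord cultures (5.75) lay under the mean floor. The sum over 6 mature oligodendrocyte markers was 52643 to 61509, 48090 to 52390, 49058 to 59016 and, with Mog and Mobp dim, 3094 to 6442. The sum over 9 neuron markers was 2403 to 3000, with Rbfox3 dim, 9564 to 10381, 7328 to 9505 and 8265 to 15096. The 5S rRNA control read 7.85 to 8.19 (log2) in differentiated brain cultures, against 9.50 to 11.02 in proliferative brain cultures. In spinal cord it read 8.09 to 8.75 in differentiated and 8.65 to 9.38 in proliferative cultures. The 3′ minus 5′ difference of the control probe sets was -0.13 to 0.13 (log2) for Gapdh and 0.69 to 1.01 for beta-actin over all arrays. The part of these cells and of RNA quality in the results below was not tested. Replicate 1 of the proliferative spinal cord cultures was the lowest of its group for all 9 genes, as described further on.

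All 9 genes differed with differentiation in brain cultures, and their direction followed no single role. Mmp2, Mmp14, Timp2 and Timp3 rose, while Mmp3, Mmp9, Mmp13, Adamts1 and Timp1 fell. That is 4 genes up and 5 down, where 46.9% of all tested probe sets were called, 23.7% higher and 23.1% lower (limma). In spinal cord cultures 3 genes rose (Mmp2, Mmp14, Timp2), 3 fell (Mmp3, Mmp13, Adamts1) and 3 were not called (Mmp9, Timp1, Timp3), against a background of 40.3% called, 18.3% higher and 22% lower. The arrays of the 2 states did not overlap for 9 of the 9 genes in brain and for 7 in spinal cord cultures, beside 58.3% and 50.3% of all probe sets. The median log2 change over the 9 genes was -0.78 in brain and -0.22 in spinal cord cultures, beside 0.00 and -0.05 over all tested probe sets. Centring each array on its median moved the share of rises among all calls in brain cultures to 38.2%, against 50.6% as deposited, and the median change of all probe sets to -0.15.

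Between the tissues most of the 9 genes were higher in spinal cord cultures. In differentiated cultures 8 were higher in spinal cord, none was lower and Timp3 was not called, where 41.4% of all probe sets were called, 18.5% higher in spinal cord and 22.9% lower. In proliferative cultures 7 were higher in spinal cord, Adamts1 was lower and Mmp14 was not called, where 37.8% were called, 19.4% higher and 18.5% lower. The arrays of the 2 tissues did not overlap for 9 of the 9 genes in differentiated and for 8 in proliferative cultures, beside 57.2% and 45.5% of all probe sets. The members' median log2 difference was 1.69 in differentiated and 1.39 in proliferative cultures, beside -0.06 and -0.02 over all probe sets. With median centring the share of calls higher in proliferative spinal cord cultures was 31.7%, against 51.2% as deposited, and the median of all probe sets -0.22. The fibroblast marker sums above and those of microglia and macrophages were likewise higher in spinal cord cultures of both states, and the part of either was not tested.

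**Figure D1:**
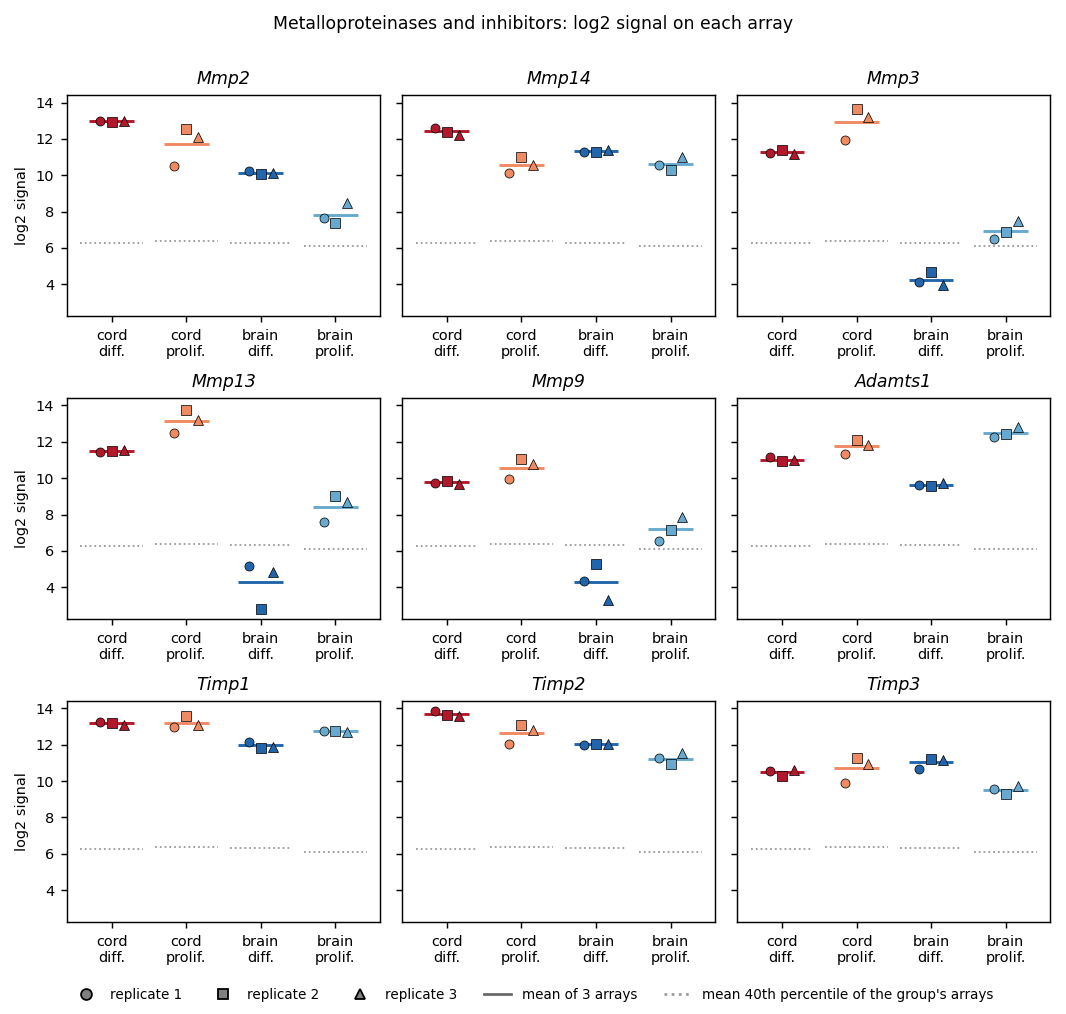
Log2 signal of the 9 genes on each of the 12 arrays, 1 panel per gene, with groups ordered differentiated and proliferative spinal cord, then differentiated and proliferative brain. Points are arrays, solid lines group means of 3 arrays and dotted lines the mean 40th percentile of the group's arrays. Mmp3, Mmp13 and Mmp9 lie under the dotted line in differentiated brain cultures and well above it in both spinal cord groups, and replicate 1 (circle) is the lowest proliferative spinal cord array in every panel.

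Mmp2, or gelatinase A, cuts denatured and basement membrane collagen and is activated at the cell surface. Its brighter probe set read 13.01, 12.94 and 12.99 in replicates 1 to 3 of differentiated spinal cord cultures, 10.54, 12.53 and 12.08 in proliferative ones, 10.22, 10.09 and 10.11 in differentiated brain cultures and 7.65, 7.40 and 8.47 in proliferative ones. The 4 groups did not overlap, and each step in this order, from the highest group to the lowest, passed the test (limma, adjusted p = 0.017, 0.0062 and 0.00024). With differentiation Mmp2 rose by 1.26 ± 0.38 on the log2 scale (SE), or 2.40-fold, in spinal cord cultures and by 2.30 ± 0.38, or 4.94-fold, in brain cultures. Spinal cord exceeded brain 7.15-fold in differentiated cultures (adjusted p = 4.3e-05) and 14.7-fold in proliferative ones (adjusted p = 3.9e-06). The spread was widest in the proliferative spinal cord group (SD 1.05), and without its replicate 1 the rise in spinal cord was 1.59-fold (adjusted p = 0.033) and the tissue difference in proliferative cultures 22.1-fold. The other Mmp2 probe set was above the floor on 2 of 12 arrays, both of differentiated spinal cord cultures, and was not tested.

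Mmp14, the membrane-type metalloproteinase that activates pro-Mmp2 together with Timp2, rose in both tissues and was highest in differentiated spinal cord cultures. Its values were 12.62, 12.37 and 12.24 in differentiated spinal cord cultures, 10.10, 11.01 and 10.55 in proliferative ones, 11.28, 11.27 and 11.41 in differentiated brain cultures and 10.55, 10.27 and 11.00 in proliferative ones. In this probe set both differentiated groups lay above both proliferative groups, which overlapped each other. The rise was 3.62-fold in spinal cord (1.86 ± 0.21, SE; adjusted p = 1.1e-05) and 1.64-fold in brain cultures (0.71 ± 0.21, adjusted p = 0.012). The call in brain was lost without replicate 2 of the proliferative group (adjusted p = 0.061) and with median centring (0.56, adjusted p = 0.068). Differentiated spinal cord cultures exceeded differentiated brain cultures 2.13-fold (adjusted p = 0.0008), and in proliferative cultures the difference was -0.05 with a 95% interval of -0.50 to 0.39 (adjusted p = 0.87). The other probe set rose 2.12-fold in spinal cord and 1.36-fold in brain cultures (adjusted p = 0.000165 and 0.041), but in it differentiated brain cultures overlapped proliferative spinal cord cultures and the difference between them was not called (0.42, adjusted p = 0.069).

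Mmp3, or stromelysin-1, cuts proteoglycans, laminin and fibronectin and activates other proenzymes of the family. It read 11.25, 11.37 and 11.14 in differentiated spinal cord cultures, 11.94, 13.65 and 13.20 in proliferative ones, 4.10, 4.67 and 3.94 in differentiated brain cultures and 6.50, 6.89 and 7.46 in proliferative ones. No groups overlapped, and the differentiated brain arrays were all dim. Spinal cord exceeded brain at least 31.0-fold in differentiated cultures (limma, adjusted p = 4.2e-09) and 62.9-fold in proliferative ones (5.98 ± 0.36, SE; adjusted p = 4.0e-08). With differentiation Mmp3 fell 3.19-fold in spinal cord (adjusted p = 0.002) and at least 1.57-fold in brain cultures (adjusted p = 3.3e-05). With every value under its array's 40th percentile set to that percentile, the fall in brain was no longer called (-0.65, adjusted p = 0.12), so it rests on values near the floor.

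Mmp13, or collagenase-3, cuts the fibrillar collagens and is the main interstitial collagenase of rodents. It read 11.45, 11.47 and 11.54 in differentiated spinal cord cultures, 12.49, 13.75 and 13.22 in proliferative ones, 5.17, 2.79 and 4.85 in differentiated brain cultures and 7.58, 9.03 and 8.71 in proliferative ones. As for Mmp3, the order was proliferative spinal cord, differentiated spinal cord, proliferative brain and differentiated brain, with no overlap and every step called (adjusted p = 0.021, 0.00024 and 2.2e-05). Spinal cord exceeded brain at least 36.5-fold in differentiated cultures and 26.3-fold in proliferative ones (adjusted p = 1.1e-07 and 1.1e-05). Mmp13 fell with differentiation 3.17-fold in spinal cord and at least 4.41-fold in brain cultures. The spinal cord call was lost without replicate 2 or 3 of the proliferative group, or without replicate 1 or 2 of the differentiated group (adjusted p = 0.081, 0.055, 0.055 and 0.052).

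The cluster on chromosome 8 holds, in RefSeq's order, Mmp13, Mmp12, Mmp1b, Mmp3, Mmp1, Mmp10, Mmp8, Mmp27, Mmp20 and Mmp7. Mmp13 and Mmp3 were above the floor on every array outside differentiated brain cultures and on none inside them. Mmp12, the macrophage elastase, was above it on 3 arrays of differentiated and 2 of proliferative spinal cord cultures, against 0 and 1 in brain. Mmp10 and Mmp7 passed it on 2 proliferative spinal cord arrays each and on none of the other groups, and Mmp8, the neutrophil collagenase, on 0 of 12. These 3 genes were not tested, and no probe set carried the symbol of Mmp1b, Mmp1, Mmp27 or Mmp20 alone.

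Mmp9, or gelatinase B, shares substrates with Mmp2. It read 9.75, 9.86 and 9.68 in differentiated spinal cord cultures, 9.93, 11.07 and 10.76 in proliferative ones, 4.34, 5.27 and 3.27 in differentiated brain cultures and 6.54, 7.13 and 7.89 in proliferative ones. Spinal cord arrays lay above all brain arrays, at least 11.0-fold in differentiated cultures and 10.6-fold in proliferative ones (adjusted p = 3.5e-07 and 4.8e-05). It fell with differentiation at least 1.85-fold in brain cultures (adjusted p = 0.00013). Its second probe set read 10.42, 10.07 and 10.23 in differentiated spinal cord cultures, 11.12, 11.49 and 11.40 in proliferative ones, 2.09, 0.50 and 2.05 in differentiated brain cultures and 6.80, 8.02 and 8.58 in proliferative ones. The groups had the same order in both probe sets, and the second fell at least 2.83-fold in brain cultures (adjusted p = 1.2e-07). In spinal cord cultures the difference was -0.82 with a 95% interval of -1.78 to 0.13 (adjusted p = 0.16), and -1.10 for the second probe set (adjusted p = 0.059), although the 2 groups' arrays did not overlap in either. That difference was called with a pseudocount of 64 (adjusted p = 0.024), with values set to the floor (0.043) and with only these 2 groups in the fit (0.033).

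Adamts1, a secreted protease that cuts the proteoglycans versican and aggrecan, was the one of the 9 genes whose highest group was proliferative brain cultures. It read 11.16, 10.92 and 11.00 in differentiated spinal cord cultures, 11.32, 12.10 and 11.81 in proliferative ones, 9.64, 9.59 and 9.72 in differentiated brain cultures and 12.26, 12.44 and 12.83 in proliferative ones. The groups did not overlap, and the tissues changed places between the states. Adamts1 fell with differentiation 7.27-fold in brain (-2.86 ± 0.17, SE; adjusted p = 3.6e-08) and 1.65-fold in spinal cord cultures (adjusted p = 0.0049). Spinal cord exceeded brain 2.60-fold in differentiated cultures (adjusted p = 2.5e-05) and was 1.70-fold lower in proliferative ones (adjusted p = 0.0037).

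Among the inhibitors, Timp2, which also takes part in the activation of pro-Mmp2 by Mmp14, followed the order of Mmp2 in its brighter probe set only. It read 13.87, 13.66 and 13.60 in differentiated spinal cord cultures, 12.04, 13.07 and 12.80 in proliferative ones, 12.01, 12.03 and 12.03 in differentiated brain cultures and 11.25, 10.93 and 11.54 in proliferative ones. Neighbouring groups did not overlap, though the lowest proliferative spinal cord array stood just above the highest differentiated brain array, and each step was called (adjusted p = 0.001, 0.036 and 0.0074). Timp2 rose with differentiation 2.11-fold in spinal cord (adjusted p = 0.001) and 1.72-fold in brain cultures (adjusted p = 0.0074). Spinal cord exceeded brain 3.23-fold in differentiated cultures (adjusted p = 1.9e-05) and 2.63-fold in proliferative ones (adjusted p = 0.00016). The second probe set read 10.02, 10.17 and 9.82 in differentiated spinal cord cultures, 7.59, 8.88 and 8.96 in proliferative ones, 9.01, 8.85 and 8.76 in differentiated brain cultures and 7.60, 7.30 and 7.24 in proliferative ones. Replicate 1 of the proliferative spinal cord group reached down to the proliferative brain arrays there. The second probe set was called the same way for differentiation and between the tissues. Its differentiated brain mean (8.87) stood above its proliferative spinal cord mean (8.48), the reverse of the brighter probe set, and this step was not called (limma, adjusted p = 0.30).

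Timp1, an inducible inhibitor of most secreted family members, was lowest in differentiated brain cultures. It read 13.27, 13.21 and 13.10 in differentiated spinal cord cultures, 12.96, 13.59 and 13.09 in proliferative ones, 12.16, 11.83 and 11.89 in differentiated brain cultures and 12.75, 12.78 and 12.68 in proliferative ones. The spinal cord groups overlapped, while differentiated brain arrays lay below those of every other group. It fell with differentiation 1.71-fold in brain cultures (adjusted p = 0.0004), while in spinal cord the change was -0.02 with a 95% interval of -0.32 to 0.27 (adjusted p = 0.91). Spinal cord exceeded brain 2.35-fold in differentiated cultures (adjusted p = 7.4e-06) and 1.39-fold in proliferative ones (adjusted p = 0.014). The call in proliferative cultures was lost without replicate 2 of the proliferative spinal cord group (0.29, adjusted p = 0.052) and with median centring (0.27, adjusted p = 0.18).

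Timp3 stays bound to the matrix and also inhibits some ADAM and ADAMTS proteases. It read 10.54, 10.30 and 10.59 in differentiated spinal cord cultures, 9.92, 11.26 and 10.93 in proliferative ones, 10.69, 11.21 and 11.19 in differentiated brain cultures and 9.59, 9.30 and 9.73 in proliferative ones. Proliferative brain cultures lay below all other groups, which were not told apart from their neighbours (adjusted p = 0.38 and 0.54). It rose with differentiation 2.81-fold in brain (adjusted p = 0.00043), and its other 3 probe sets 2.68-fold to 3.69-fold. In spinal cord the change was -0.22 with a 95% interval of -0.80 to 0.35 (adjusted p = 0.54), and none of the other probe sets was called. In differentiated cultures spinal cord minus brain was -0.55 (95% interval -1.12 to 0.02, adjusted p = 0.12), and in proliferative cultures spinal cord was 2.24-fold higher (adjusted p = 0.0036). Over the other 3 probe sets the differentiated tissues differed by -0.21 to -0.41, not called, and the proliferative ones 2.02-fold to 2.34-fold, called. Without replicate 1 of the proliferative spinal cord group both uncalled values passed, at -0.62 (adjusted p = 0.012) for differentiation in spinal cord and -0.55 (adjusted p = 0.011) between the differentiated groups. The other 3 probe sets were not called for differentiation in spinal cord without that array (0.20, -0.25 and -0.24, adjusted p = 0.57, 0.39 and 0.23), and 1 of them was called between the differentiated groups (-0.38, adjusted p = 0.036; the others -0.21 and -0.41, adjusted p = 0.49 and 0.11).

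**Figure D2:**
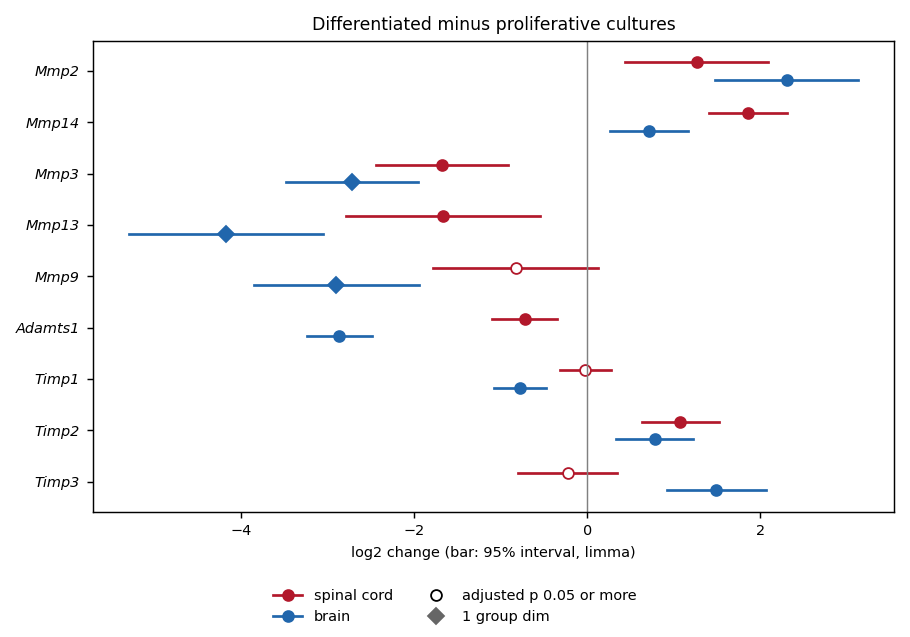
Log2 change, differentiated minus proliferative cultures, of the 9 genes in spinal cord (red) and brain (blue), with 95% intervals from limma. Open circles have an adjusted p of 0.05 or more and diamonds have 1 dim group, so that their size is not measured. Mmp2, Mmp14 and Timp2 lie right of 0 in both tissues, and Adamts1 stands at -0.72 in spinal cord and -2.86 in brain.

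The change with differentiation was compared between the tissues by the interaction of the same model, where 40.5% of all probe sets were called, 18.8% higher in spinal cord and 21.7% lower (61.3% of the calls were higher with median centring, against 46.4% as deposited, and the median over all probe sets was 0.19, against -0.04). Of the 9 genes 5 had the higher change in spinal cord (Adamts1, Mmp9, Mmp13, Mmp14 and Timp1), Timp3 had the lower, and Mmp2, Mmp3 and Timp2 were not called. For Adamts1 the difference was 2.14 ± 0.25 (SE, log2; adjusted p = 1.5e-05), with the deeper fall in brain. Mmp14 rose further in spinal cord by 1.15 ± 0.29 (adjusted p = 0.0068), and its second probe set by 0.64 (adjusted p = 0.044), which was not called without replicate 1 of the proliferative spinal cord group (adjusted p = 0.078). For Timp1 the difference of responses was 0.75 ± 0.19 (adjusted p = 0.0070). For Timp3 it was -1.71 ± 0.37 (adjusted p = 0.0024), and -1.41 to -1.60 for the other probe sets, all called. Mmp13 and Mmp9 gave 2.50 and 2.07 (adjusted p = 0.015 and 0.017), but with the dim brain group at the floor the values were 0.48 and 0.07 and neither was called (adjusted p = 0.42 and 0.92). The second Mmp9 probe set gave 5.15 (adjusted p = 2.0e-05), and 0.40 at the floor. Mmp3 (adjusted p = 0.12) has no size here, since its sign turned with the dim group at the floor (1.04 as deposited, -1.02 at the floor). For Mmp2 the value was -1.04 (95% interval -2.20 to 0.12, adjusted p = 0.14), and without replicate 1 of the proliferative spinal cord group -1.63 (adjusted p = 0.00083). For Timp2 it was 0.30 (95% interval -0.34 to 0.93, adjusted p = 0.45).

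**Figure D3:**
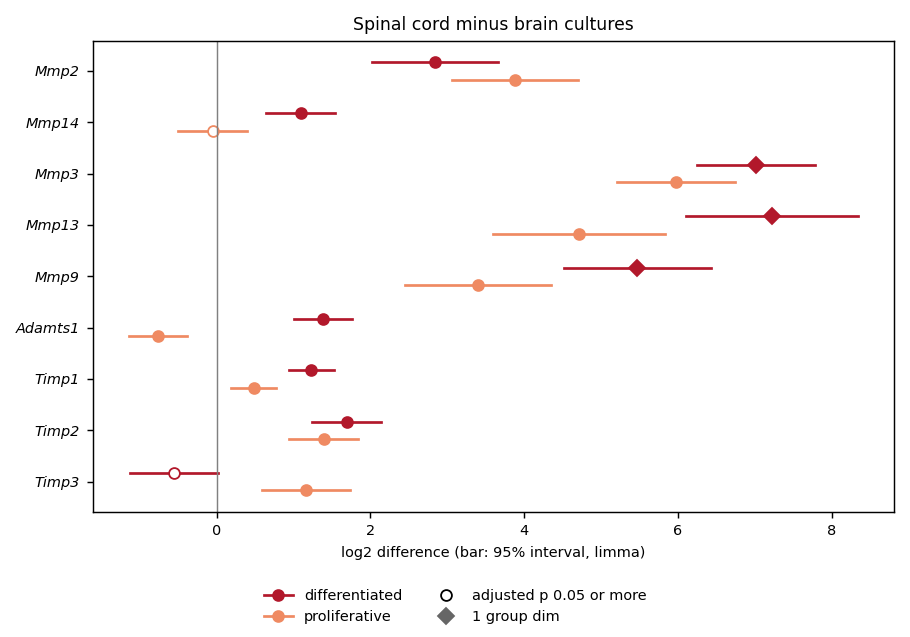
Log2 difference, spinal cord minus brain, of the 9 genes in differentiated (dark red) and proliferative (orange) cultures, with 95% intervals from limma. Open circles have an adjusted p of 0.05 or more and diamonds have 1 dim group. Mmp3, Mmp13, Mmp9 and Mmp2 lie farthest to the right, and Adamts1 lies at 1.38 in differentiated and -0.76 in proliferative cultures.

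The arrays of a group did not scatter alike. Replicate 1 of the proliferative spinal cord cultures was the lowest of its 3 arrays for all 9 genes, by a median of -0.98 (log2; range -1.77 to -0.38) against the mean of the other arrays. Over all 20834 tested probe sets the same array was lowest in 37.1%, with a median shift of 0.03. The fibroblast marker sum of the 3 arrays was 23711, 42300 and 36287, lowest in replicate 1, and the microglia sum 6716, 3591 and 4273, highest there. The astrocyte sum was likewise lowest in replicate 1 (22370, 41358 and 35570), as were the sums of Schwann cell (5146, 6934 and 6173) and oligodendrocyte precursor markers (20346, 23148 and 23540). In differentiated spinal cord cultures the median shift of an array over the 9 genes was -0.12 to 0.10. Without replicate 1, Mmp3 differed between the proliferative tissues by 88.6-fold and Mmp13 by 33.1-fold.

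**Figure D4:**
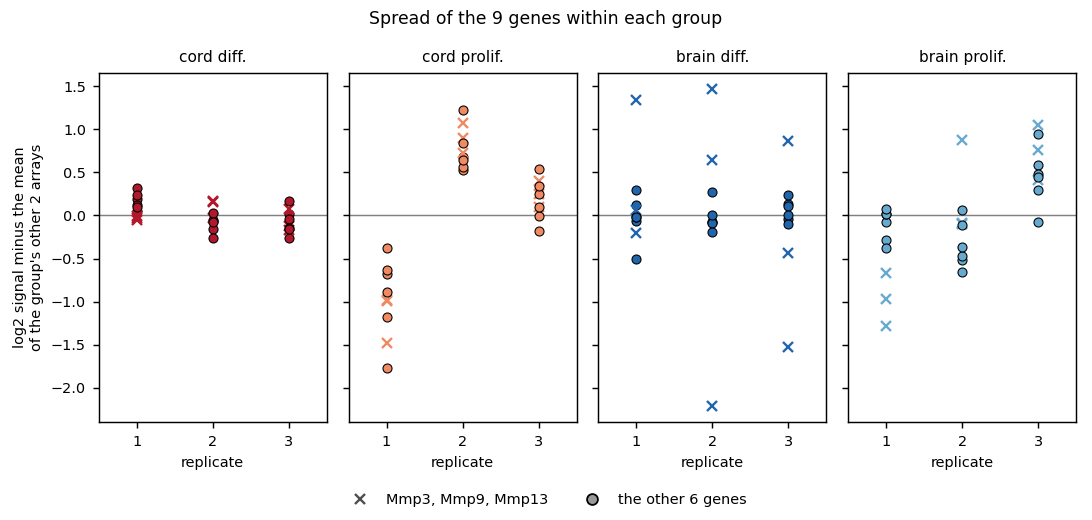
Log2 signal of each of the 9 genes on an array minus the mean of the group's other 2 arrays, by replicate, in 4 panels for the groups; crosses mark Mmp3, Mmp9 and Mmp13. All 9 points of replicate 1 in proliferative spinal cord cultures lie below 0, between -1.77 and -0.38, and the wide crosses in differentiated brain cultures are values under the floor.

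Related genes are given next from lists of the protease system, each count with the median log2 value of its list. Of all tested probe sets 23.7% rose and 23.1% fell with differentiation in brain, 18.3% and 22% in spinal cord cultures. Spinal cord was higher for 18.5% and lower for 22.9% in differentiated cultures, and for 19.4% and 18.5% in proliferative ones. No list was tested against these shares, and several list counts lie near them. Of 12 other metalloproteinases on the array 8 were tested. In brain cultures 3 rose with differentiation and none fell (median 0.22), namely the membrane-type genes Mmp16 (3.98-fold) and Mmp24 (2.27-fold) and Mmp19 (2.30-fold, with 2 of 3 proliferative brain arrays above the floor). In spinal cord cultures Mmp24 rose and 3 fell (median 0.04): Mmp15 by 8.92-fold, Mmp17 by 4.27-fold and Mmp11 by 2.60-fold. Proliferative spinal cord cultures exceeded brain in 6 of the 8 and were lower in 0 (median 1.27), with Mmp16 5.82-fold and Mmp15 4.52-fold higher. In differentiated cultures 2 were higher in spinal cord and 2 lower (median 0.25), among them Mmp15 (2.23-fold lower).

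Of 18 other ADAMTS and ADAM genes on the array 14 were tested. In differentiated cultures 10 were called higher in spinal cord and none lower (median 1.20), 1 of them, Adamts8, dim in both groups. The highest folds were those of Adamts12 (at least 30.5-fold) and Adamts15 (at least 21.3-fold), both secreted proteases of the Adamts1 family. In proliferative cultures 8 were higher in spinal cord, among them Adamts4 (5.10-fold), an aggrecan-cutting protease, and 3 lower, among them Adamts9 (3.65-fold; list median 0.69). With differentiation 7 rose and 1 fell in spinal cord (median 0.66), with Adamts12 up 17.9-fold and Adamts15 up 10.0-fold, and 3 rose and 4 fell in brain cultures (median -0.19), Adamts8 among the 4 and again dim in both groups. In brain Adamts4 rose 4.08-fold and Adamts9 fell 4.33-fold.

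Other inhibitors and clearance receptors had 12 tested genes. In proliferative cultures 10 were higher in spinal cord and none lower (median 1.53), with the protease inhibitor Tfpi2 19.6-fold (1 of 3 proliferative brain arrays above the floor) and Thbs2 11.6-fold higher. In differentiated cultures 6 were higher and 1 lower (median 0.84), with Pcolce, which enhances procollagen processing, 89.8-fold (2 of 3 differentiated brain arrays above the floor) and Reck, a membrane-anchored metalloproteinase inhibitor, 8.41-fold higher. With differentiation 5 rose and 4 fell in spinal cord (median -0.55), Reck rising 2.81-fold and Tfpi2 falling 10.6-fold. In brain 4 rose and 1 fell (median 0.32), with A2m, a protein that traps proteases of many classes, up 24.7-fold and its receptor Lrp1 up 3.25-fold.

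Activators and partners had 19 tested genes. With differentiation 8 fell and 2 rose in brain cultures (median -0.27), and 6 fell and 6 rose in spinal cord cultures (median -0.10). Plau, the urokinase that turns plasminogen into plasmin, an activator of proenzymes, fell at least 5.99-fold in spinal cord and at least 22.8-fold in brain cultures, counted from the floor because the means of the differentiated groups lay under it, with 1 and 2 of 3 arrays above. Its receptor Plaur fell 4.48-fold and at least 9.33-fold. Lcn2, which binds Mmp9, rose 3.64-fold in spinal cord, where the collagen-cutting cathepsin Ctsk rose 7.78-fold. Spinal cord was higher for 8 and lower for 3 in differentiated cultures (median 0.33), with Ctsk at least 42.4-fold and the syndecan Sdc1 13.4-fold higher. In proliferative cultures 6 were higher and 4 lower (median 0.09), with Plau 3.90-fold lower in spinal cord.

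Substrates in the matrix had 19 tested genes, of which Col1a1, Col1a2 and Col3a1 also stand among the fibroblast markers. Spinal cord was higher for 13 and lower for 6 in differentiated cultures (median 1.78) and higher for 14 and lower for 1 in proliferative ones (median 2.06). Col1a1 exceeded brain 149-fold in differentiated and at least 19.2-fold in proliferative cultures, and Lamb1, a laminin chain, at least 56.7-fold in differentiated cultures. Both bounds are counted from the floor, since the brain mean lay under it with 1 of 3 arrays above. The brain proteoglycan gene Ncan was 17.2-fold lower in differentiated and 2.63-fold lower in proliferative spinal cord cultures. With differentiation 9 rose and 6 fell in spinal cord (median 0.49), among them Col1a1 (10.3-fold higher) and Cspg4 (10.8-fold lower). In brain 7 rose and 1 fell (median 0.43), and Bcan, a proteoglycan of brain matrix, rose 22.4-fold.

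AP-1 and Ets factors had 16 tested genes, and 7 fell and 2 rose with differentiation in spinal cord cultures (median -0.40), 9 fell and 2 rose in brain cultures (median -0.61). Fosl1, a Fos family subunit of AP-1, fell 12.1-fold in brain, where Fos itself rose 1.49-fold. In spinal cord Fos fell 3.96-fold and Atf3 3.42-fold. Fos was 2.48-fold lower in differentiated and 2.39-fold higher in proliferative spinal cord cultures than in brain, and Fosl1 was 5.29-fold lower in proliferative ones. Over the list 7 were higher and 5 lower in differentiated spinal cord cultures (median 0.23), and 6 higher, with Batf dim in both groups, and 4 lower in proliferative ones (median -0.10). Cytokines and growth factors that are known inducers of metalloproteinases had 15 tested genes, and 7 fell and 2 rose in spinal cord (median -0.64), 8 fell and 2 rose in brain cultures (median -1.26). The EGF receptor ligand Areg fell at least 33.0-fold in spinal cord and at least 16.3-fold in brain cultures, Hbegf of the same family 5.53-fold and 21.8-fold, and Il11 at least 13.1-fold and at least 5.57-fold. Tgfa, another EGF receptor ligand, went the other way in brain cultures and rose 4.69-fold. Tgfb2 rose 4.23-fold in spinal cord and 7.42-fold in brain cultures. Spinal cord was higher for 10, with Lif dim in both groups, and lower for 3 in differentiated cultures (median 1.71), and higher for 7 and lower for 2 in proliferative ones (median 1.19), with Il6 at least 1.94-fold and at least 5.34-fold higher. Hbegf was 3.07-fold lower in differentiated and 12.1-fold lower in proliferative spinal cord cultures. Tgfa was 1.96-fold lower in differentiated and 8.32-fold higher in proliferative ones.

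**Figure D5:**
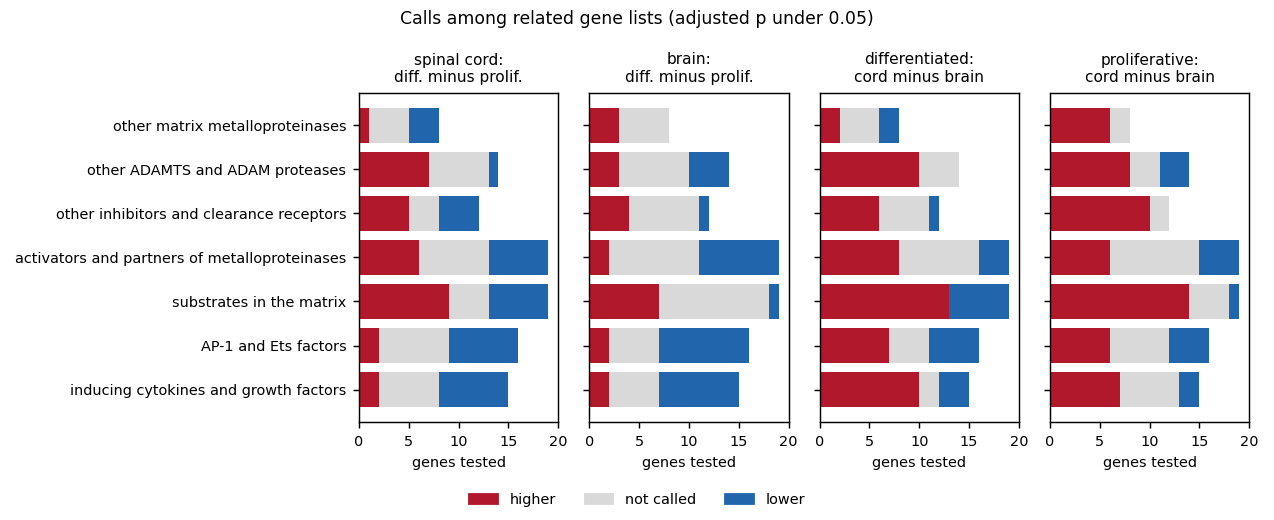
Number of tested genes of the related lists that were called higher (red), called lower (blue) or not called (grey) at an adjusted p under 0.05 in limma, in 4 comparisons. In differentiated cultures 10 of 14 other ADAMTS and ADAM proteases are called higher in spinal cord, 1 of them dim in both groups, and none lower, and among AP-1 and Ets factors the blue part is larger than the red with differentiation in both tissues.

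Likeness of pattern was measured as the root mean square difference over the 12 arrays after centring each gene on its own mean, among 11217 other tested genes, as a description with no test. Nearest to Mmp13 were Slpi (0.66), Ptgs2 (0.91) and Mmp3 (0.93), and nearest to Mmp3 were Slpi (0.79), Mmp13 (0.93) and Ptgs2 (0.93). Mmp9 had Mgst2 (0.63), Ptgs2 (0.71) and Fcgr2b (0.81). Since these genes vary by several log2 units between groups, the distances are small beside their own spread of 3.44 for Mmp13, 3.47 for Mmp3 and 2.52 for Mmp9 on the same measure. Both the distances and the spreads of these genes include differentiated brain values under the floor. Mmp2 was nearest to Aard (0.39), Aebp1 (0.42) and C1s (0.45), and Mmp14 to Dglucy (0.18), Ginm1 (0.19) and Plag1 (0.23). Adamts1 was nearest to the chemokine gene Cxcl2 (0.19), then Epha2 (0.29) and Rpia (0.33), against a spread of its own of 1.07. Timp1 lay nearest Ero1a (0.20), Timp2 nearest Plod1 (0.15) and Timp3 nearest Crebl2 (0.25), against spreads of their own of 0.53, 0.94 and 0.64.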

How the data were processed

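RNA of cultured rat NSCs was read on 12 Affymetrix Rat230_2 arrays, in 4 groups of 3 taken from the sample titles. Each deposited value is a log2 signal of 1 probe set, and the submitters' processing notes name MAS5 and affy without versions. Their scale was checked on the values: on the linear scale each array's mean, trimmed by 2% at both ends, was 500. Detection calls were not used here. Without 57 controls, 31042 of 31099 probe sets remained, and the 20834 that exceeded the 40th percentile of at least 3 arrays were tested. The brightest probe set over all arrays stood for its gene. 1 mean per group was fitted with limma 3.58.1 in R 4.3.3 (lmFit, eBayes with a trend, 8 residual degrees of freedom), adjusted by Benjamini-Hochberg over all tested probe sets. The fit was tested on simulated data first. The number of arrays limits the precision. Members and lists, with their markers, were chosen with earlier results of these data known. In each list and comparison the genes named come from those called with the largest changes, up to 3 a direction, and for likeness the 3 nearest. Alternatives covered the filter, scaling, pseudocount, variance model, replicate block, the groups in the fit and each array left out. Setting low values to the floor was added after seeing the data. Gene symbols are those of the platform annotation, and promoters are RefSeq's for GRCr8.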

Additional observations from a re-analysis of the deposited data

Results flagged for a closer look

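The differentiation response differed between the tissues, by the interaction test of limma, for 6 of the 9 genes, while 40.5% of all probe sets were called in the same test. Spinal cord minus brain, on the log2 scale, the difference was 2.14 for Adamts1, 1.15 for Mmp14, 0.75 for Timp1 and -1.71 for Timp3, none of which involves a dim group. For Mmp13 (2.50) and Mmp9 (2.07) the differentiated brain group was dim, so these sizes are not measured, and at the floor the values were 0.48 and 0.07.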

How the results depend on the processing

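Over the alternatives 1101 member values were recomputed, and 1077 stayed on their side of the threshold, 14 lost their call, 10 gained one and 0 turned round from a called value. Where the array left out lay outside a comparison of 2 groups, the estimate could not change and only its test could. Comparisons of differentiated cultures of 1 tissue with proliferative cultures of the other were not among these values. Uncalled values turned sign for Mmp14 between the proliferative tissues, Mmp3 in the difference of responses, and Timp1 and Timp3 in spinal cord differentiation, each under some settings. Calls lost or gained that are not given beside the genes above follow. The difference of responses of Mmp9 was not called with array weights (1.56, adjusted p = 0.064, limma), and that of Mmp3 was called without replicate 2 of the proliferative spinal cord group (1.40, adjusted p = 0.031). With a pseudocount of 64 the difference of responses was 0.62 for Mmp13 and 0.53 for Mmp9, neither called, and with array weights -1.53 for Mmp2, called. Timp3 between the differentiated groups was called with array weights (-0.63) and with these groups alone in the fit (-0.55). Same-numbered arrays did not deviate together (r = -0.12 to 0.05, 0 of 18 pairs over 0.1), so the numbers show no pairing. With the replicate block 9415 probe sets were called for brain and 7971 for spinal cord differentiation, 8196 and 7531 between the tissues in differentiated and proliferative cultures and 8072 for the difference of responses, against 9763, 8396, 8617, 7877 and 8434 without it, and no member's call changed. Leaving out 1 array gave 8250 to 10463, 6782 to 8643, 7099 to 9415, 6408 to 8619 and 7408 to 9165 in the same order. Signals near the 40th percentile limit Mmp3, Mmp9 and Mmp13 in brain cultures, where no fall beyond the bound can be measured.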
